A study of Mus musculus with 12 samples.

Results

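Meningeal and perivascular fibroblasts, the collagen-producing cells of the coverings and vessel sheaths of the brain, were selected on the UMI counts of their marker genes from snRNA-seq (single-nucleus RNA sequencing) of the mouse left hippocampus. A UMI (unique molecular identifier) stands for 1 counted RNA molecule. A nucleus was taken when it had at least 1 UMI of at least 3 of 7 genes, Col1a1, Col1a2, Dcn, Slc6a13, Ranbp3l, Slc47a1 and Lum. It also had to have no UMI of Cldn5 or Mog, which mark endothelial cells and oligodendrocytes, and at most 1 UMI of the neuronal genes Slc17a7, Slc17a6, Gad1 and Gad2 together. The rule found 1895 fibroblast nuclei among 184957 nuclei with 500 to 10000 detected genes, a share of 1.02%. The levels of the 7 rule genes and all comparisons of the fibroblasts with other nuclei are therefore descriptions without a test, while comparisons between genotypes and ages over libraries were tested.

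The nuclei came from 12 female mice, 1 library each, 3 of them 3xTg-AD and 3 WT littermates at each of 2 time points, 6 months and 12 months. The 3xTg-AD line carries human APP with the Swedish mutation and human tau with the P301L mutation as transgenes, on a mixed B6;129 background. The transgenes are driven by a Thy1 cassette that is active mainly in neurons. All mice were perfused with phosphate-buffered saline, and the nuclei were sorted by FACS before capture.

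Fibroblasts of the brain lie in the arachnoid and pia, which together form the leptomeninges, in the dura, and along larger vessels that enter the tissue. Arachnoid fibroblasts and barrier cells carry solute transporters and make retinoic acid, whereas pial and perivascular fibroblasts lay down laminins and collagens of the basement membrane. In the hippocampus such cells come with the pia of the hippocampal fissure, the vessel sheaths and the stroma of neighbouring choroid plexus, and none of them belongs to the neural tissue itself.

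The promoters of 3 of the genes that set these nuclei apart are shown because these genes are among those that mark the fibroblasts most and because T-box factors, of which the fibroblasts expressed Tbx18 and Tbx15, bind the core AGGTGT searched in them. Each is the 250 bases before the RefSeq start on GRCm38.p6, 5′ to 3′ on the gene's strand, and none of them overlaps an annotated exon. A T-box core on either strand (AGGTGT or ACACCT) is in capitals.
Ranbp3l, chr15:8967699-8967948, plus strand: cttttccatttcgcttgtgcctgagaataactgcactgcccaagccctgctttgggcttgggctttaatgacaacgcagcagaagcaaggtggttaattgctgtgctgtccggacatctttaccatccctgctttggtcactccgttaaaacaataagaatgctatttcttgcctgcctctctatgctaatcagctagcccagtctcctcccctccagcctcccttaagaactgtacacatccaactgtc
Aldh1a2, chr9:71215539-71215788, plus strand: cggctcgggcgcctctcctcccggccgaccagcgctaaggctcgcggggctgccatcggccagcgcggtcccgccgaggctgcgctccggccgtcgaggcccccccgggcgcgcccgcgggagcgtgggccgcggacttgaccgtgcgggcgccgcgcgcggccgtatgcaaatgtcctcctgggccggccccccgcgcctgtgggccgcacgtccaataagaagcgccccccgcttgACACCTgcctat
Cp, chr3:19956804-19957053, plus strand: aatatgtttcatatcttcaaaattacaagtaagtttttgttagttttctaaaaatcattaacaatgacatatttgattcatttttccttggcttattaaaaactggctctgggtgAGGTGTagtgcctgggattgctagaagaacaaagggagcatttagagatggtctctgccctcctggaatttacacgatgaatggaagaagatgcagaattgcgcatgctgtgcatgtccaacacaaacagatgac
Of the 20 leading genes described next, 15 had at least 1 promoter in the table. The T-box core was found in 5 of the 19 promoters matched for the 15 genes, those of Aldh1a2, Ptgds, Bmp6, Col1a2 and Cp, and in 11.8% of all 32851 promoters of the same length. The forkhead core TAAACA or TGTTTA, searched because Foxc1 and Foxd1 were expressed, was found in 1 of the 19 promoters, that of Slc7a11, and in 12.0% of all promoters. These are matches of letters in a window, and the core of Aldh1a2 began 12 bases before its start.

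The number of fibroblast nuclei ranged from 58 to 233 per library, with 164068 to 709228 UMIs summed over them. The median fibroblast nucleus had 2583 UMIs and 1510 genes, against 5387 UMIs and 2507 genes in all other nuclei. Of the fibroblasts, 1133 had 3 of the 7 rule genes, 580 had 4, 162 had 5 and 20 had 6, and 0 had all 7. Just outside the rule, 1393 nuclei had 2 of the 7 and met the other conditions. In the nuclei with exactly 3 rule genes Ranbp3l averaged 3310 CPM (UMIs of the gene scaled to a common total per population), against 2000 CPM in those with 2. Dcn likewise averaged 299 and 105 CPM, and Slc47a1 went the other way with 84.2 and 338 CPM. Of the fibroblasts, 111 (5.86%) were called doublets, against 6.80% of other nuclei, and they were kept in the values given here. No fibroblast shared its cell barcode with a fibroblast of another library, while 84 shared it with some nucleus of another library.

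The share of fibroblasts among the nuclei of a library was 1.19% ± 0.411 (SD, n = 3) in 6-month 3xTg-AD, 1.31% ± 0.404 (n = 3) in 6-month WT, 0.691% ± 0.584 (n = 3) in 12-month 3xTg-AD and 0.998% ± 0.250 (n = 3) in 12-month WT mice. The single libraries gave 1.645%, 1.067% and 0.8505% in 6-month 3xTg-AD mice. They gave 1.625%, 0.8573% and 1.457% in 6-month WT mice. The 12-month groups overlapped each other and the younger ones, and the lowest shares of the series were both in 12-month 3xTg-AD libraries. In that group replicate 2 had 0.4182% (exact 95% binomial interval 0.3215 to 0.5348%), replicate 6 had 1.362% (1.187 to 1.556%) and replicate 10 had 0.2928% (0.2224 to 0.3783%). The 12-month WT libraries had 1.286%, 0.8616% and 0.8457%. The intervals cover counting error only, and replicate 6 lay above the intervals of the other 2 libraries of its group. Between ages the mean share differed by -0.406 percentage points, 12 minus 6 months, and a two-sided exact permutation test gave p = 0.1061 (adjusted p = 0.3182 over 3 tests, n = 6 and 6). Between genotypes it differed by -0.216 percentage points (exact permutation p = 0.4113, adjusted p = 0.6169), and the genotype difference itself did not differ detectably between ages (-0.181 percentage points, exact permutation p = 0.73). Within 1 age the smallest p that 3 against 3 libraries allow is 0.1. A share of nuclei cannot tell fewer fibroblasts from more of the other cells.

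**Figure D1:**
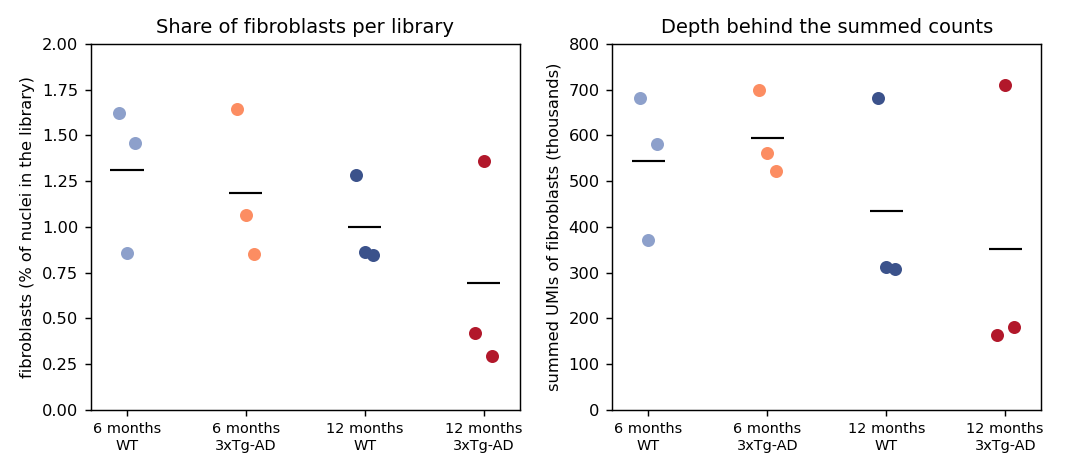
Left, fibroblasts as a percentage of all nuclei in each library, and right, the UMIs summed over the fibroblasts of each library in units of 1000, each against group; points are single libraries (n = 3 per group) and bars are group means. The 12-month 3xTg-AD libraries spread from 0.2928 to 1.362%, and the 2 lowest of them also have the fewest summed UMIs.

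Across the 12 libraries the share of fibroblasts was set beside those of 4 other vessel and ventricle populations, named by their own markers. With endothelial cells, 0.312 to 0.668% of a library, Pearson's r was 0.61 (permutation p = 0.036, adjusted p = 0.072, n = 12) and Spearman's rho was 0.573 (permutation p = 0.0541, adjusted p = 0.108). Without the 2 libraries of most extreme endothelial share r was 0.584, and it was 0.512 within 6 months and 0.619 within 12 months. With ependymal cells, which line the ventricle, r was 0.636 (permutation p = 0.0269, adjusted p = 0.072) and rho was 0.622 (permutation p = 0.0341, adjusted p = 0.108), with r = 0.816 without the 2 most extreme libraries and r = 0.302 and 0.662 within the ages. Mural cells gave r = 0.315 (permutation p = 0.321, adjusted p = 0.428) and rho = 0.0769 (permutation p = 0.817, adjusted p = 0.817), with r = 0.142 without the 2 extremes and r = 0.265 and 0.459 within the ages. Choroid plexus epithelium gave r = -0.049 (permutation p = 0.882, adjusted p = 0.882) and rho = -0.105 (permutation p = 0.752, adjusted p = 0.817), with r = 0.24 without the 2 extremes, and r was -0.848 within 6 months and 0.646 within 12 months. None of the 4 relations passed an adjusted p of 0.05, and all of these shares have the same total below them.

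The leading genes were taken by their ratio to all other nuclei. Ranbp3l, a RAN-binding protein, averaged 3240 CPM ± 723 (SD, n = 12) and was seen in 93.4% of the fibroblasts, against 16.5 CPM and 3.59% of all other nuclei, which were deeper. Its level ran from 2370 to 4780 CPM over libraries with a median of 3160. Slc6a13, a GABA and taurine transporter, averaged 900 CPM ± 104 (86.1% of nuclei) against 2.54 CPM (0.690%). Both are rule genes, so that their lead was built in. Ptgds, which makes prostaglandin D2 and is also a secreted lipid carrier, ran from 6670 to 15600 CPM with a median of 9910, against 132 CPM elsewhere.

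Of the 20 genes with the highest ratio over other nuclei among those seen in at least 25% of the fibroblasts, 16 were not in the rule. Slc6a20a, a proline transporter, averaged 2590 CPM ± 537 (n = 12) against 12.9, and Slc7a11, the cystine and glutamate exchanger, 3890 CPM ± 716 against 44.8. Aldh1a2, which makes retinoic acid, averaged 603 CPM ± 93.0 against 1.91. Bmp6, a secreted BMP ligand, averaged 2630 CPM ± 412 against 33.0. Slc13a3 and Slc13a4, carriers of dicarboxylates and of sulfate, averaged 482 and 460 CPM against 4.0 and 4.04. The remaining leading genes were Cped1 (2020 CPM), Col4a6 (503 CPM), Lama1 (1050 CPM), Colec12 (1650 CPM), Arhgap29 (1110 CPM), Cp (881 CPM), Prdm6 (440 CPM) and Adamts12 (548 CPM), with the rule genes Dcn and Col1a2 beside 1 that is left out. Col4a6 and Lama1 are chains of basement membrane collagen and laminin, and Cp is the copper-carrying ferroxidase ceruloplasmin. Each of the 20 was higher in the fibroblasts than in the other nuclei of the same library in 12 of 12 libraries, which is a description since these nuclei were chosen for such genes. With a pseudocount of 5 CPM the ratios of the genes named ran from 51.4 for Slc13a4 to 151 for Ranbp3l.

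**Figure D2:**
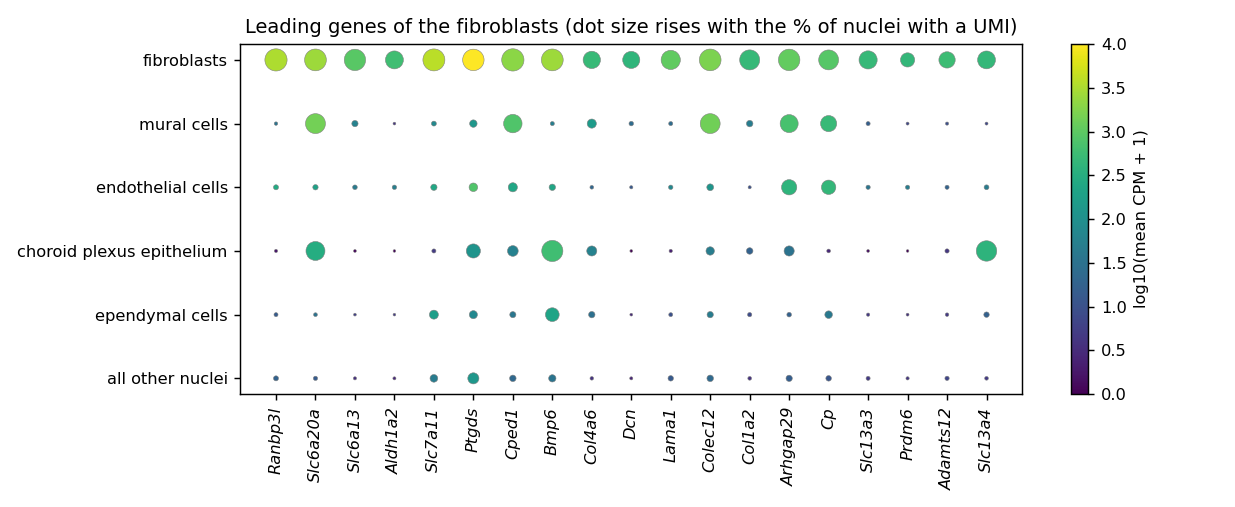
The leading genes named in the text (columns) in the fibroblasts, 4 other vessel and ventricle populations and all other nuclei (rows); color is log10 of mean CPM + 1 over 12 libraries and dot size rises with the percentage of nuclei with a UMI. Slc6a20a, Colec12 and Cped1 are also seen in mural cells, and Slc13a4 and Bmp6 in choroid plexus epithelium.

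The other rule genes were spread over collagens, proteoglycans and a transporter. Dcn, a small collagen-binding proteoglycan, averaged 411 CPM ± 106 (n = 12, range 246 to 567), and Col1a2, a chain of type I collagen, 473 CPM ± 95 (range 363 to 683). Its partner Col1a1 averaged 125 CPM ± 28.0 and was seen in 28.2% of the fibroblasts. Slc47a1, an organic cation exporter, averaged 57.2 CPM and ran from 0 to 140 CPM per library, and Lum, another small proteoglycan, averaged 47.6 CPM. UMIs come from the 3′ ends of RNAs and carry no length correction, so levels are compared here between populations and not between genes.

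Against the vessel classes the fibroblasts were set apart by the defining genes of each. Endothelial cells had Ptprb at 1470 CPM, Adgrl4 at 1850, Mecom at 3610 and Vwf at 626, and the fibroblasts had 0.496, 1.99, 4.72 and 0.385 CPM. Mural cells, the pericytes and smooth muscle cells, had Rgs5 at 1030 CPM, Abcc9 at 1740 and Notch3 at 997, and the fibroblasts had 0.983, 5.23 and 10.8 CPM. Mecom, Rgs5, Abcc9 and Notch3 were among the markers that chose these classes, so that their levels there are in part built in. Genes of the other direction included Cemip, which degrades hyaluronan, with 837 CPM in the fibroblasts and 17.1 in endothelial cells, and Adam12, a metalloprotease, with 2240 CPM and 25 in mural cells. Some markers counted for other classes were present. Vtn reached 411 CPM (mural cells 2290), Pdgfrb 156 CPM (mural cells 1230), Flt1 150 CPM (endothelial cells 3140) and Slc1a3, a glutamate transporter used as an astrocyte marker, 1350 CPM (all other nuclei 135). Summed over the marker lists, mural markers ran from 468 to 748 CPM per library, endothelial markers from 214 to 467 CPM, neuronal markers from 723 to 2900 CPM (10900 CPM on average elsewhere) and astrocyte markers from 1670 to 2510 CPM. Markers of border macrophages ran from 0 to 6.1 CPM, and Mog, Cldn5, Folr1 and Pf4 were at 0, Mog and Cldn5 by the rule. The part that RNA of other cells has in these levels was not tested.

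Genes listed for the extracellular matrix are given by their levels and by how many reached 10 CPM on average. That level does not by itself show expression, since 5 of 8 neuronal, 4 of 5 astrocyte, 4 of 5 oligodendrocyte and 4 of 5 OPC markers also reached it in these nuclei, and 3 UMIs were 16.5 and 18.3 CPM in the 2 smallest libraries. Of 22 basement membrane genes 19 reached 10 CPM, and the list summed to 5030 CPM (4490 to 5760 over libraries) against 506 elsewhere. Only 6 of the 22 were highest in the fibroblasts among the 5 populations compared. Lama2, the laminin chain of muscle and vessel sheaths, averaged 1290 CPM and was higher still in mural cells (1740 CPM), whereas Lama1 was at 1050 CPM in the fibroblasts and at 23.9 in mural and 73.9 in endothelial cells. Of 11 fibrillar collagen genes 9 reached 10 CPM and 6 were highest in the fibroblasts among the 5 populations compared, with Col5a2 at 167 and Col3a1 at 133 CPM. The rule genes Col1a1 and Col1a2 are among the 6, where the rule placed them. Of 24 other collagens 13 reached 10 CPM, among them Col23a1 at 433 CPM and Col26a1 at 207. Of 34 proteoglycans and matrix glycoproteins 31 did, among them Igfbp2 at 308 CPM, Fbln1 at 223 and Ltbp1, which tethers latent TGF-beta, at 164 (mural cells 219). The rule genes Dcn and Lum are among the 31, so that part of this count was built in. Of 27 matrix enzymes and inhibitors 18 reached 10 CPM, with Timp3, an inhibitor of metalloproteases, at 736 CPM. Among the 5 populations 12 of the 27 were highest in the fibroblasts, of which 9 reached 10 CPM.

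The 35 transporters of the brain barriers summed to 13100 CPM (11400 to 14600) against 1150 elsewhere, and 33 of them reached 10 CPM. Among the 5 populations compared 19 were highest in the fibroblasts. The rule genes Slc6a13 and Slc47a1 are on this list, so that part of the sum and of both counts was built in. The organic anion transporters Slc22a8 and Slc22a6 averaged 327 and 166 CPM. The 41 secreted signals summed to 17800 CPM (14900 to 23400) against 1380 elsewhere, and 19 were highest in the fibroblasts among the 5 populations. Beside Ptgds and Bmp6 the list included Ptn (1350 CPM, mural cells 1760), Pdgfd (450 CPM), Sema3a (408 CPM), Wnt4 (216 CPM), Bmp7 (214 CPM) and Igf2 (197 CPM). Of the 17 genes of retinoic acid synthesis, binding and breakdown 13 reached 10 CPM, with Aldh1a1 at 265 CPM, the receptor Rarb at 256, the degrading enzyme Cyp26b1 at 75.1 and Crabp2 at 20.3. Of 25 complement and cytokine genes 11 reached 10 CPM and 14 were highest in the fibroblasts among the 5 populations, of which 6 reached 10 CPM. Il34, a ligand of the microglial receptor Csf1r, averaged 372 CPM and was higher in mural cells (757 CPM).

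Markers of several meningeal layers were present. The 6 arachnoid fibroblast markers all reached 10 CPM and summed to 1740 CPM (1470 to 2030) against 32.8 elsewhere, of which the rule gene Slc6a13 gave 900 and 2.54 CPM, with Ogn at 109 and Wnt6 at 62.0 CPM. Of 6 pial and perivascular markers 5 did, with a sum of 2460 CPM (2120 to 2940) against 132, including Cyp1b1 at 71.5 and Col15a1 at 30.7 CPM. Of 7 dural markers 2 reached 10 CPM, Mgp at 50.1 and Foxc2 at 31.4, and the list summed to 106 CPM (57.3 to 218). Among 15 junction genes and markers of the arachnoid barrier, 8 reached 10 CPM, and the list summed to 1370 CPM (1180 to 1630) against 540 elsewhere. The tight junction adaptor Tjp1 averaged 640 CPM (endothelial cells 2070), and the connexins Gjb6, Gja1 and Gjb2 305, 149 and 69.4. The barrier markers Cdh1 and Cldn11 averaged 22.5 and 19.8 CPM, near the 16.5 and 18.3 CPM of 3 UMIs in the 2 smallest libraries. Dpp4, Cldn1, Cgn, F11r, Dsp, Krt18 and Krt8 did not reach 10 CPM, and Krt8 had no UMI. Of 31 transcription factors listed for the meninges 19 were highest in the fibroblasts among the 5 populations compared, of which 15 reached 10 CPM. Among them were Bnc2 (645 CPM), Foxp2 (713), Zic4 (333), Foxd1 (259), Tbx18 (238), Foxc1 (111) and Tbx15 (108). Foxp1 averaged 1770 CPM (endothelial cells 2100), and Ebf1, at 461 CPM, was higher in mural (4350 CPM) and endothelial cells (2270 CPM). These marker sums are in part fixed by the rule, since Slc6a13 is both a rule gene and a listed arachnoid marker.

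Leiden clustering split the fibroblasts into 10 clusters, of which the 5 largest held at most 1.42% doublets. Cluster 1 (423 nuclei, 22.3%) was led by Fmo1, at 340 CPM against 57.0 in the other fibroblasts, and by Lef1, Apcdd1 and Nkd1, a transcription factor and feedback inhibitors of Wnt signalling. Cluster 2 (421 nuclei, 22.2%) was led by Abi3bp (328 against 63.7 CPM), Slc22a2 and Prdm6 (980 against 303 CPM). Cluster 3 (364 nuclei, 19.2%) was led by Col22a1 (235 against 56.7 CPM) and Il34 (829 against 269 CPM). Cluster 4 (241 nuclei, 12.7%) was led by Eln, the elastin gene (352 against 48.5 CPM), and Jag1, a Notch ligand (250 against 37.6 CPM). Cluster 5 (207 nuclei, 10.9%) was led by Rspo2, a Wnt agonist (463 against 24.1 CPM), Slc9a2, Nnat (7850 against 835 CPM) and Cdh1.

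Smaller clusters stood further from these. Cluster 7 (65 nuclei) was led by Il33 (457 against 9.43 CPM), Col15a1 (391 against 17.1 CPM) and Fbln2. Cluster 9 (37 nuclei from 9 libraries, 11 of them from 12-month WT replicate 12) was led by Bmper, an extracellular BMP regulator (1210 against 14.5 CPM), and by Alpl. Clusters 6, 8 and 10 held 71, 59 and 7 nuclei, of which 88.7%, 57.6% and 85.7% were called doublets. Neuronal markers summed to 8570 CPM in cluster 6 and astrocyte markers to 8950 CPM in cluster 8.

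The marker lists were spread unevenly over the clusters. Arachnoid fibroblast markers summed to 2340 CPM in cluster 2, 2130 in cluster 5, 2090 in cluster 3, 1870 in cluster 1, 1320 in cluster 4 and 485 in cluster 9. Pial and perivascular markers summed to 6670 CPM in cluster 7, about 3500 in clusters 4 (3530) and 1 (3490), and 1390 in cluster 5. Dural markers summed to 832 CPM in cluster 9, 334 in cluster 8, and 42.3 to 206 CPM in clusters 1 to 5. At a resolution of 1.0 a cluster of 19 nuclei was led by Adamtsl3, the first leading gene of cluster 8, and none of them was called a doublet. It had a dural sum of 1210 CPM, above the 940 CPM of the Bmper cluster, and Slc47a1 at 2310 CPM. A cluster of 40 nuclei led by Gm3764 and Slc1a2, which also lead cluster 8, held 85.0% doublets. Rule genes followed different clusters. Ranbp3l reached 5930 CPM in cluster 5 and 398 in cluster 7, Dcn 1130 in cluster 7 and 100 in cluster 5, and Slc47a1 905 in cluster 9 and 576 in cluster 8 with at most 24.3 in clusters 1 to 7. Ptgds ran from 567 CPM in cluster 9 to 20300 in cluster 5. The rule genes took no part in the clustering, and the clusters were cut from other genes of the same nuclei. Levels by cluster are therefore descriptions, and no cluster was given a cell type name.

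**Figure D3:**
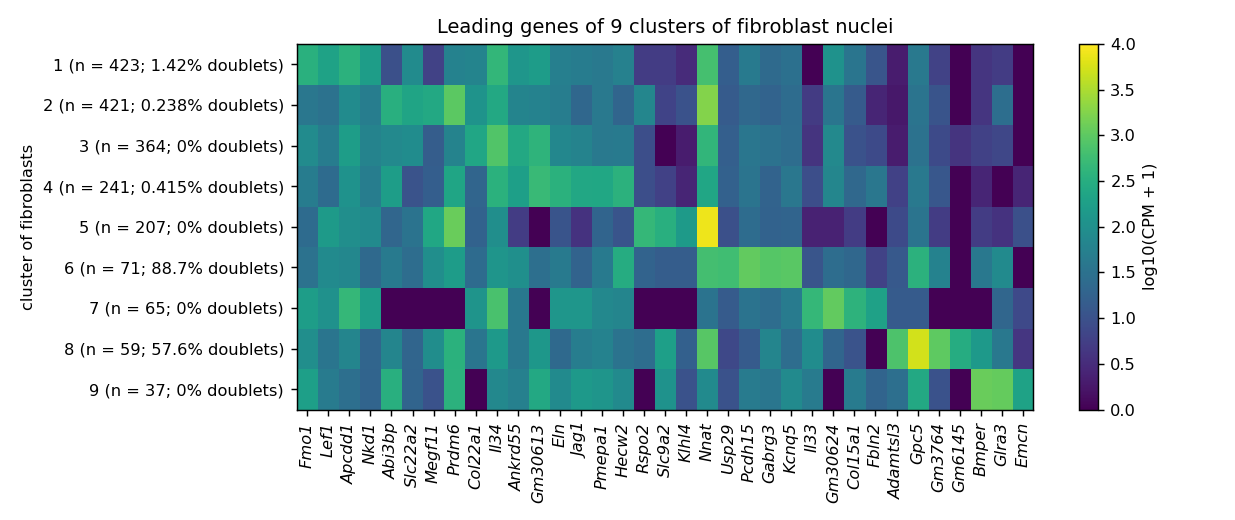
Leading genes (columns) of 9 clusters of fibroblast nuclei (rows, with the number of nuclei and the percentage called doublets); color is log10 of CPM + 1 over the summed counts of a cluster. Leading genes are in part shared, as with Prdm6 at 980 CPM in cluster 2 and 1210 in cluster 5, and clusters 6 and 8 combine genes of neurons or astrocytes with doublet shares of 88.7% and 57.6%; the tenth cluster, of 7 nuclei, is left out.

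The shares of clusters 1, 2, 4, 5 and 9 among the fibroblasts of a library were compared between ages and between genotypes, while clusters led by genes called between groups were not part of these tests. None of the 10 tests passed an adjusted p of 0.05, the lowest being 0.4004 (two-sided exact permutation test, 6 against 6 libraries). Cluster 4, the elastin cluster, made up 15.2% ± 5.59 at 6 months and 9.31% ± 4.52 at 12 months, an exact permutation p of 0.07143 before adjustment. Cluster 1 made up 19.7% ± 5.50 and 25.5% ± 4.54 (exact permutation p = 0.08009 before adjustment). Clusters 3 and 7, which are led by the genes St6galnac5 and Gm30624 called in genotype comparisons (St6galnac5 also in the interaction with age), are described between ages without a test, since they were looked at only after their shares were seen. Cluster 7, led by Il33 and Col15a1, made up 0.592 to 3.29% of the fibroblasts in the 6-month libraries and 3.45 to 12.1% in the 12-month libraries, so that the ages did not overlap. Its mean share was 2.34% ± 0.992 at 6 and 6.04% ± 3.21 at 12 months (n = 6 each). At a Leiden resolution of 1.0 the cluster of the same leading genes made up 3.13% ± 1.40 and 7.03% ± 3.77, and there the ages overlapped. Cluster 7 was cut from the same counts, and it holds 1 to 8 nuclei per library. The level of its leading gene Col15a1 over all fibroblasts did not overlap between the ages either. Since Col15a1 is higher in cluster 7 than in the other fibroblasts, this is not separate evidence. Cluster 3 made up 20.9% ± 5.11 and 15.8% ± 4.51.

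Expression in 3xTg-AD and WT fibroblasts was then compared at each time point on counts summed per library, with edgeR's quasi-likelihood test and Benjamini-Hochberg adjustment over all genes tested. Calls needed both a log2 fold change beyond 0.2 in either direction and an adjusted p below 0.05. At 6 months 13 of 8226 genes were called (0.158%), 2 of them higher in 3xTg-AD (0.0243%) and 11 lower (0.134%), and 599 had an unadjusted p under 0.05, where 5% of the genes tested is 411. This split moved with the settings, to 40 of 89 calls higher without the expression filter, 22 of 46 without 3xTg-AD replicate 9, 7 of 26 without doublets and 0 of 5 with thinned counts. At 12 months 3 of 5792 genes were called (0.0518%), 1 higher (0.0173%) and 2 lower (0.0345%), and 251 had an unadjusted p under 0.05, where 5% is 290. DESeq2 called 12 and 9 genes. None of the 454 genes in the lists, of which 278 and 229 could be tested, was called by edgeR at either age. Ankfn1 and Gm5089 were called at both ages, which share no library. With each library left out in turn the count ran from 7 (without WT replicate 7) to 46 (without 3xTg-AD replicate 9) at 6 months and from 0 (without WT replicate 8) to 25 (without 3xTg-AD replicate 6) at 12 months.

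Ankfn1, a gene of ankyrin repeat and fibronectin domains on chr11:89390223-89777653 (GRCm38, minus strand), was lower in 3xTg-AD at both ages. At 6 months it had 15.7, 12.5 and 7.67 CPM in the 3xTg-AD libraries and 160, 64.6 and 99.8 CPM in the WT libraries. At 12 months it had 36.6, 5.64 and 5.50 CPM in 3xTg-AD and 106, 131 and 117 CPM in WT. The groups did not overlap at either age, a state that held in this direction for 7.09% of all genes at 6 months and 4.42% at 12 months. The log2 fold change was -3.15 (SE 0.38, adjusted p = 0.00162, edgeR) at 6 months and -3.37 (SE 0.50, adjusted p = 0.0256) at 12 months. In all other nuclei of the same libraries Ankfn1 stood between 84.9 and 107 CPM in every library, whatever the genotype. At 12 months the call was lost without any 1 of 4 libraries (3xTg-AD replicate 10 or WT replicate 4, 8 or 12), and at 6 months it held without each library in turn.

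WT was above 3xTg-AD for Ankfn1 in each of the 5 larger clusters at both ages. Summed over the libraries of a group, cluster 3 had 241 CPM in 6-month WT and 246 in 12-month WT against 6.53 and 0 CPM in 3xTg-AD. Cluster 2 had 153 and 117 CPM in WT against 2.58 and 8.44 CPM. In cluster 6, where most nuclei were called doublets, 3xTg-AD had 82.2 and 60.8 CPM and WT 102 and 289 CPM at 6 and 12 months. These cluster values rest on few UMIs and are given without a test.

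Gm5089 (ENSMUSG00000115263), an antisense transcript on chr14:122365239-122406743 (minus strand) that overlaps Clybl, had 58.6, 24.9 and 47.9 CPM in 6-month 3xTg-AD and 180, 161 and 145 CPM in 6-month WT fibroblasts. At 12 months it had 36.6, 50.8 and 38.5 CPM in 3xTg-AD and 141, 157 and 254 CPM in WT. The genotypes did not overlap at either age, and the log2 fold change was -1.86 (SE 0.25, adjusted p = 0.00207, edgeR) at 6 months and -2.04 (SE 0.30, adjusted p = 0.0256) at 12 months. All other nuclei had 13.6 to 17.6 CPM in 3xTg-AD and 18.3 to 26.5 CPM in WT, so that the same direction was present there at a lower level. The 12-month call was lost without 3xTg-AD replicate 2 or 10, or WT replicate 8 or 12.

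Clec3b encodes tetranectin, a secreted protein that binds plasminogen, and lies on chr9:123150946-123157432. It had 8.57, 19.6 and 9.59 CPM in 6-month 3xTg-AD and 70.4, 67.3 and 103 CPM in 6-month WT fibroblasts, a log2 fold change of -2.67 (SE 0.34, adjusted p = 0.00162, edgeR). At 12 months it had 18.3, 16.9 and 11 CPM against 30.8, 137 and 121 CPM, without overlap and without a call. It was nearly absent from all other nuclei, with at most 1.62 CPM at 6 months. Gm42397, a long noncoding RNA on chr7:70870913-71073345, had the lowest adjusted p at 6 months, with 27.2, 16.0 and 15.3 CPM in 3xTg-AD and 139, 143 and 129 CPM in WT. Its log2 fold change was -2.75 (SE 0.26, adjusted p = 8.2e-05, edgeR), and it stood at 1.78 to 3.25 CPM in all other nuclei. At 12 months Gm42397 had 12.2, 21.1 and 11 CPM in 3xTg-AD and 144, 86.3 and 32.6 CPM in WT, again without overlap and without a call. At a Leiden resolution of 1.0 Gm42397 led a cluster of 116 nuclei, 35 of them from 12-month WT replicate 4. The part of that cluster in the Gm42397 values was not tested.

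**Figure D4:**
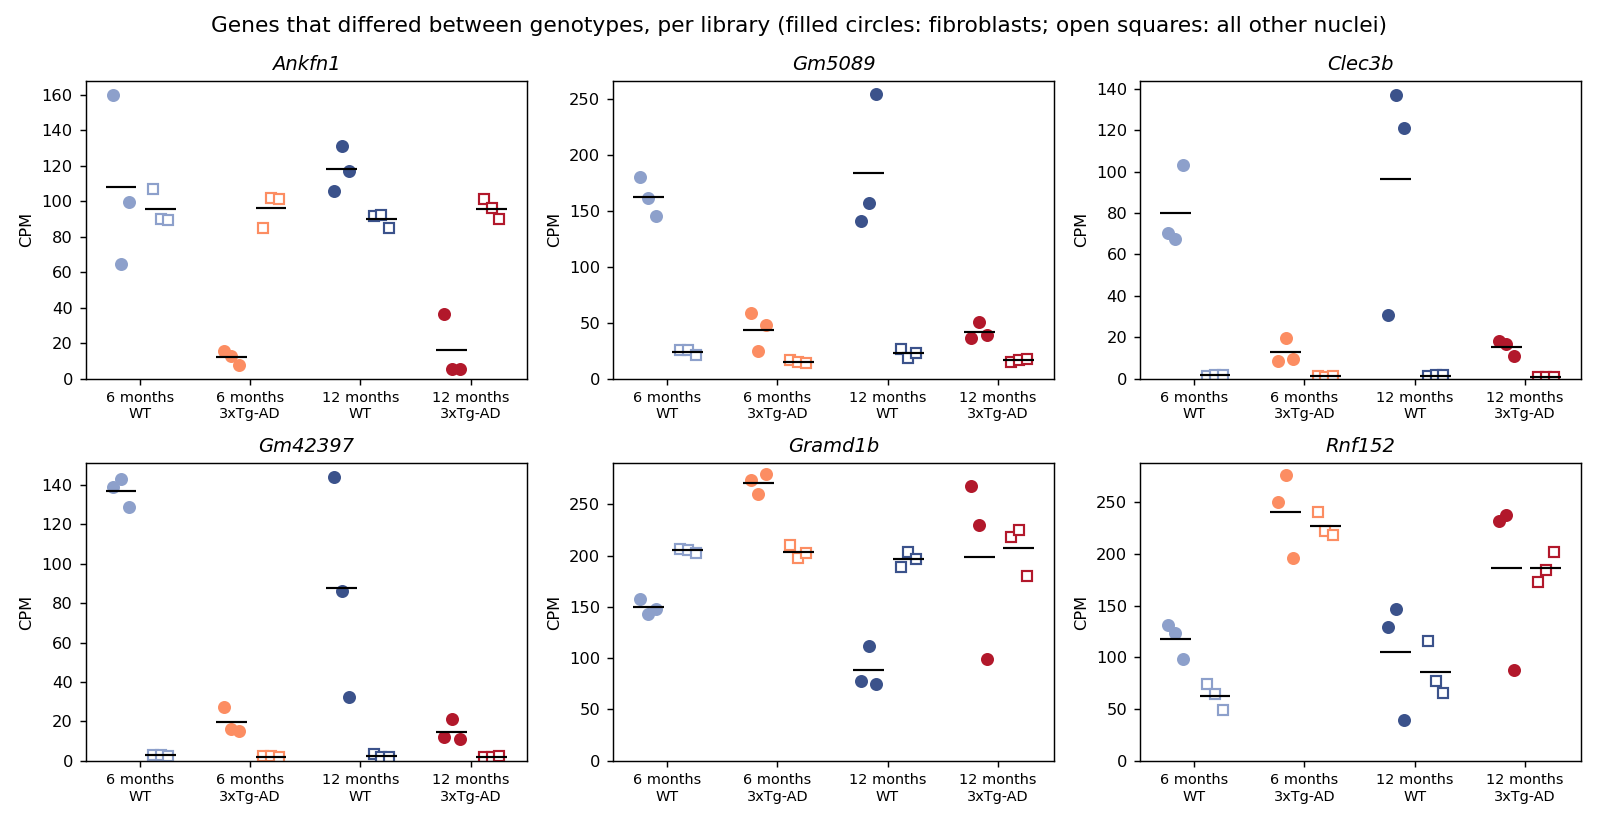
CPM of 6 genes called between genotypes at 6 months, by group; filled circles are the fibroblasts and open squares all other nuclei of the same library (n = 3 libraries per group), and bars are means. Ankfn1, Gm5089, Clec3b and Gm42397 are lower in 3xTg-AD fibroblasts at 6 months with no overlap, Gramd1b and Rnf152 are higher, and Ankfn1 stays between 84.9 and 107 CPM in all other nuclei.

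Both genes called higher in 6-month 3xTg-AD fibroblasts encode proteins of membranes. Gramd1b, which moves cholesterol from the plasma membrane to the endoplasmic reticulum, had 274, 260 and 280 CPM in 3xTg-AD and 158, 143 and 148 CPM in WT (log2 fold change 0.87, SE 0.15, adjusted p = 0.0242, edgeR), without overlap as for 5.65% of all genes in this direction. Rnf152, a ubiquitin ligase of lysosomes that holds back mTORC1, had 250, 276 and 196 CPM and 131, 124 and 98.1 CPM (log2 fold change 1.05, SE 0.19, adjusted p = 0.0275). At 12 months Gramd1b had 268, 230 and 99.0 CPM in 3xTg-AD against 77.8, 112 and 74.9 CPM in WT, and Rnf152 had 232, 238 and 88.0 CPM against 129, 147 and 39.1 CPM. Both overlapped between the genotypes there, without a call. In all other nuclei Gramd1b stood at 180 to 225 CPM over the 12 libraries, whereas Rnf152 was at 218 to 241 CPM in 6-month 3xTg-AD and 48.7 to 74.4 CPM in 6-month WT libraries there. Leaving out 1 library ended the call of Gramd1b for 4 of 6 libraries (3xTg-AD replicate 1 and WT replicates 3, 7 and 11) and that of Rnf152 for these and 3xTg-AD replicate 5. At a Leiden resolution of 1.0 Rnf152 was among the leading genes of a cluster of 52 nuclei, 11 of them from 6-month 3xTg-AD replicate 5. The part of that cluster in the Rnf152 values was not tested.

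The other genes lower in 6-month 3xTg-AD fibroblasts were Stard9, Dtna, Mill2, Gm30624, AC149090.1, Gm17167 and Gm42743. Stard9, a kinesin-like motor, had 52.9, 35.6 and 61.4 CPM against 135, 140 and 136 CPM in WT (log2 fold change -1.44, SE 0.22, adjusted p = 0.00728, edgeR). Dtna, an alpha-dystrobrevin of the dystrophin complex, had 98.6, 105 and 144 CPM against 251, 275 and 239 CPM (log2 fold change -1.13, SE 0.18, adjusted p = 0.00923). The Dtna call was lost without 3xTg-AD replicate 1 or WT replicate 3 or 7. Mill2, which encodes a class I MHC-like protein, had 84.3, 65.9 and 109 CPM against 175, 196 and 232 CPM. Its log2 fold change was -1.21 (SE 0.20, adjusted p = 0.0117), and in all other nuclei it stood the other way round, at 4.29 to 4.98 CPM in 3xTg-AD and 1.95 to 3.01 CPM in WT. The Mill2 call was lost without 3xTg-AD replicate 1 or WT replicate 7 or 11. AC149090.1, for which no position was found, had 113, 80.1 and 82.5 CPM against 239, 277 and 384 CPM, and 129 to 196 against 620 to 921 CPM in all other nuclei. At 12 months AC149090.1 had 219, 189 and 511 CPM in 3xTg-AD and 225, 134 and 163 CPM in WT fibroblasts, with overlap, and its interaction was 2.32 (SE 0.48, adjusted p = 0.484, edgeR). Gm30624 had a log2 fold change of -1.32, and its interaction was 1.79 (SE 0.45, adjusted p = 0.549, edgeR) without a call. It also led cluster 7.

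Gm17167 and Gm42743 were nearly without UMIs in 3xTg-AD fibroblasts, and their calls at 6 months were lost without any 1 of 5 libraries, 3xTg-AD replicate 1 or 5 or WT replicate 3, 7 or 11. Gm17167 had 1, 0 and 0 UMIs in 6-month 3xTg-AD and 21, 7 and 12 in WT libraries, a ratio of 43.6 (exact 95% interval 7.39 to 1770, counting error only), and at 12 months 0 in all 3 against 8, 9 and 8, at least 6.76-fold lower at a floor of 3 UMIs over the group. Gm42743, a noncoding RNA that overlaps Hist2h2bb on the same strand, had 0, 0 and 1 UMIs against 15, 13 and 12 at 6 months, again a ratio of 43.6 (7.39 to 1770). At 12 months it had 0 UMIs in all 3 against 8, 4 and 7, at least 5.14-fold lower. In all other nuclei Gm17167 stood at 0.133 to 0.208 CPM in 3xTg-AD and 13.6 to 24.8 CPM in WT libraries, and Gm42743 at 0.116 to 0.275 and 1.67 to 6.67 CPM. The direction was the same in all other nuclei. Whether inherited segments of the mixed background differ between the 3xTg-AD mice and their littermates was not tested.

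Other settings also ended calls at 6 months. In nuclei with at least 4 of the 7 rule genes Ankfn1 was called and Gramd1b, Rnf152, Gm42397, AC149090.1, Clec3b, Gm5089, Stard9, Dtna and Mill2 were not. Thinned counts ended the calls of Gramd1b, Rnf152, Stard9, Dtna and Mill2. Leaving out nuclei with UMIs of other classes ended those of Rnf152, Gm42397, Clec3b, Stard9 and Dtna. This setting dropped nuclei with at least 2 UMIs of mural, ependymal or choroid plexus epithelium markers (without Ttr), Aqp4 or Gja1. Neuronal, endothelial and oligodendrocyte markers were not counted in it. Gm30624 was not called in this setting, with thinned counts or with at least 4 of the 7 rule genes. A fit of all 12 libraries ended the calls of Gramd1b, Rnf152, AC149090.1, Clec3b and Dtna. DESeq2 did not call Gramd1b, whose log2 fold change ran down to 0.34 over the settings. At 12 months leaving out nuclei with UMIs of other classes ended the calls of Ankfn1 and Gm5089, and that of Gm5089 was also lost with thinned counts and with at least 4 of the 7 rule genes.

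Genes with the next smallest p and no call that were higher in 3xTg-AD at 6 months were Fam180a, with 95.8, 60.5 and 67.1 CPM in 3xTg-AD against 22.0, 35.0 and 29.2 CPM in WT (adjusted p = 0.0596, edgeR), Rapgef5 and Nmnat2 (both adjusted p = 0.0704). The listed matrix, transport and signalling genes were not called, and the median log2 fold change of all genes was -0.00183. Rule genes were left out of these list summaries. Of the 9 other fibrillar collagens 5 were tested at 6 months, and all 5 had a positive log2 fold change with a median of 0.303. Of 22 basement membrane genes 17 were tested, 6 of them positive with a median of -0.208. Of 17 growth factor receptors tested 3 were positive, with a median of -0.221. Transporters gave 12 positive of 27 tested, with a median of -0.0215, and arachnoid barrier genes 4 of 7 with a median of 0.0521.

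The gene called higher in 3xTg-AD at 12 months was St6galnac5, which encodes a sialyltransferase acting on gangliosides and lies on chr3:152817081-152982246 (minus strand). It had 384, 554 and 357 CPM in 3xTg-AD and 86.6, 76.7 and 32.6 CPM in WT fibroblasts, a log2 fold change of 2.65 (SE 0.31, adjusted p = 0.0129, edgeR), without overlap as for 5.63% of all genes in this direction. At 6 months it had 250, 297 and 288 CPM in 3xTg-AD and 371, 460 and 373 CPM in WT, so that the older WT libraries were the low ones of the series. In all other nuclei it stood between 166 and 245 CPM in every library. The call at 12 months was lost without WT replicate 8 (adjusted p = 0.07429). Genes with the next smallest p and no call at 12 months included Meis2, with 85.3, 57.8 and 55.0 CPM against 13.2, 3.20 and 3.26 CPM (adjusted p = 0.0866), and Dgkb, with 219, 182 and 225 CPM against 85.2, 102 and 71.7 CPM (adjusted p = 0.0945). Acss3, a mitochondrial enzyme of propionate use, had 366, 447 and 396 CPM against 737, 706 and 974 CPM (adjusted p = 0.139). Neuronal markers summed to 723, 2420 and 2900 CPM in the 12-month 3xTg-AD fibroblasts, from lowest to highest, and to 1000, 1120 and 1170 CPM in 12-month WT, and 15.52% of the fibroblasts of 3xTg-AD replicate 10 were called doublets. The part of these in the 12-month values was not tested.

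The listed groups at 12 months gave no call either. Of 31 transcription factors of the meninges 17 were tested, 3 of them with a positive log2 fold change and a median of -0.332, against 0.00562 for all genes. Without the rule genes, 21 of 32 proteoglycans and matrix glycoproteins were tested, with 2 positive and a median of -0.294, and of 41 secreted signals 23 were tested, with 4 positive and a median of -0.210. Fibrillar collagens, again without the rule genes, had a median of 0.0888 with 3 positive of 5 tested. The 12-month fits rested on 164068 and 181870 UMIs in the 2 smallest libraries, both 3xTg-AD.

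The change of the genotype difference between ages was tested as an interaction over all 12 libraries, with positive values where 3xTg-AD over WT was higher at 12 than at 6 months. The test called 4 of 9082 genes (0.0440%), St6galnac5 and Pigk in the positive (0.0220%) and Sema5a and Kdr in the negative direction (0.0220%). At an unadjusted p under 0.05 there were 407, where 5% of the genes is 454, and DESeq2 called 5. With each library left out in turn 1 to 5 genes were called, 1 of them without 12-month 3xTg-AD replicate 6 or 6-month WT replicate 7. St6galnac5 had an interaction of 3.13 on the log2 scale (SE 0.35, adjusted p = 0.00011, edgeR). Its values, given above, were lower in all 3xTg-AD than in all WT libraries at 6 months and higher in all of them at 12 months.

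Pigk encodes the catalytic subunit of the transamidase that attaches GPI anchors, and lies on chr3:152714100-152980408 on the plus strand, where it overlaps St6galnac5 on the opposite strand. It had 107, 85.5 and 95.9 CPM in 6-month 3xTg-AD and 117, 137 and 129 CPM in 6-month WT fibroblasts. At 12 months it had 128, 188 and 137 CPM in 3xTg-AD and 44.0, 63.9 and 61.9 CPM in WT, and the interaction was 1.85 (SE 0.31, adjusted p = 0.0158, edgeR). All other nuclei had 104 to 138 CPM. Whether the counting used strand was not given in the sources used here, and reads of the 2 genes may be shared, so that they are not counted as separate evidence. The Pigk call was lost without 12-month WT replicate 4, 6-month 3xTg-AD replicate 5, 12-month 3xTg-AD replicate 6 or 6-month WT replicate 7, and with thinned counts, at least 4 of the 7 rule genes or nuclei with UMIs of other classes left out.

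Sema5a, a transmembrane guidance protein on chr15:32244810-32696341, moved the other way. It had 233, 223 and 251 CPM in 6-month 3xTg-AD, 198, 126 and 177 CPM in 6-month WT, 183, 180 and 187 CPM in 12-month 3xTg-AD and 383, 339 and 469 CPM in 12-month WT fibroblasts. The interaction was -1.66 (SE 0.27, adjusted p = 0.0104, edgeR), and the 12-month difference alone was -1.14 with an adjusted p of 0.0740. In all other nuclei the same order was weaker, with 178 to 216 CPM in 12-month WT and 123 to 171 CPM in 12-month 3xTg-AD libraries. The Sema5a call was lost without 12-month 3xTg-AD replicate 6 or 6-month WT replicate 7, and without nuclei with UMIs of other classes.

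Kdr, the main VEGF receptor of endothelial cells on chr5:75932827-75978458, was called on few UMIs. The fibroblasts held 22, 8 and 12 UMIs in 6-month 3xTg-AD, 1, 0 and 0 UMIs in 6-month WT, 2, 3 and 1 in 12-month 3xTg-AD and 10, 4 and 13 in 12-month WT libraries. At 6 months the ratio of 3xTg-AD to WT was 38.5 (exact 95% interval 6.54 to 1560, counting error only), and the fitted interaction was -6.65 (SE 1.16, adjusted p = 0.0186, edgeR). The call was lost without any 1 of 5 libraries, 6-month 3xTg-AD replicate 1, 12-month 3xTg-AD replicate 6, 6-month WT replicate 7 or 11, or 12-month WT replicate 12. Endothelial markers summed to 249, 466 and 467 CPM in 6-month 3xTg-AD fibroblasts and to 294, 377 and 452 CPM in 6-month WT, from lowest to highest, and their part in Kdr was not tested.

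**Figure D5:**
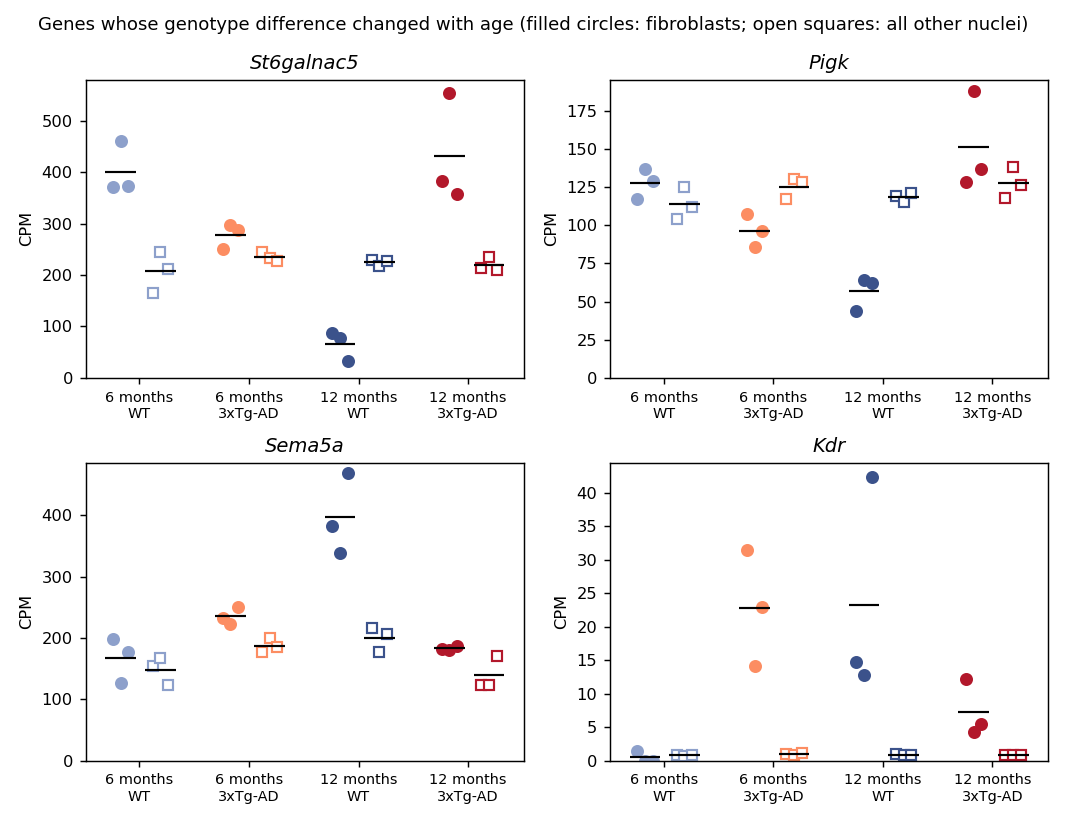
CPM of the 4 genes with an interaction of genotype and age, by group; filled circles are the fibroblasts and open squares all other nuclei of the same library (n = 3 libraries per group), and bars are means. St6galnac5 and Pigk are lowest and Sema5a is highest in the fibroblasts of 12-month WT mice, and Kdr is near 0 CPM in those of 6-month WT mice.

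By cluster, the St6galnac5 difference at 12 months was seen in clusters 1 to 4. In cluster 6, where most nuclei were called doublets, 12-month 3xTg-AD had 365 and 12-month WT 238 CPM, beside 235 CPM in 6-month WT. Cluster 10, which also expressed the gene, held 0 nuclei of 12-month 3xTg-AD mice. Cluster 3 had 732 CPM in 6-month 3xTg-AD, 829 in 6-month WT and 1140 in 12-month 3xTg-AD nuclei, and 87.9 CPM in those of 12-month WT mice. Cluster 1 had 229, 523, 640 and 21.1 CPM in the same order, and cluster 4 had 246, 491, 409 and 105 CPM. Cluster 5 held little in any group, with at most 36.0 CPM. These sums over a group have no replicate error and no test.

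Between ages, 12 over 6 months with genotype as a covariate, edgeR called 0 of 9082 genes (0%), with 459 at an unadjusted p under 0.05 (5% of the genes is 454), and DESeq2 called 3. Leaving out 1 library gave 0 to 5 calls, the most without 6-month 3xTg-AD replicate 1. The values of the 7 genes with the smallest p are given without a claim of change. Galntl6, of the GalNAc-transferase family, had the smallest, with a log2 fold change of -0.94 (adjusted p = 0.105, edgeR) and 326 to 687 CPM in the 6-month and 195 to 411 CPM in the 12-month libraries. Ddx60, an interferon-induced helicase, had a log2 fold change of 1.13 (adjusted p = 0.105, edgeR), with 17.3 to 51.1 CPM in the 6-month and 44.0 to 97.5 CPM in the 12-month libraries. Slit2, a secreted guidance ligand, had -1.33 (adjusted p = 0.105), with 75.4 to 144 CPM at 6 and 12.2 to 71.7 CPM at 12 months. Col15a1, a collagen of vessel basement membranes, had 1.17 (adjusted p = 0.187), with 10.7 to 29.6 CPM at 6 and 32.3 to 57.5 CPM at 12 months. Cacna2d3, a calcium channel subunit, had -0.78 (adjusted p = 0.190), with 178 to 341 CPM at 6 and 111 to 207 CPM at 12 months, and B3galt1, a galactosyltransferase, had 0.64 (adjusted p = 0.204), with 354 to 540 and 499 to 759 CPM. Enpp2, which makes lysophosphatidic acid, had 0.65 (adjusted p = 0.219), with 205 to 317 CPM at 6 and 347 to 512 CPM at 12 months. Cluster 7, which Col15a1 leads, made up 2.34% of the fibroblasts at 6 and 6.04% at 12 months, and the part of that share in the Col15a1 values was not tested. The ages overlapped for Galntl6, Ddx60, Cacna2d3 and B3galt1 and did not for Slit2, Col15a1 and Enpp2, as for 0.0991% of all genes that were higher and 0.176% that were lower at 12 months. Of 28 interferon response genes 18 were tested between ages, 15 of them positive with a median log2 fold change of 0.407 against -0.000175 for all genes, 3 with an unadjusted p under 0.05 and none called.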

How the data were processed

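Nuclear RNA of 12 left hippocampi was sequenced by the authors as 10x 3′ libraries (v3 chemistry), 1 per mouse, and the deposited files hold raw UMI counts per gene and barcode, made with Cell Ranger 6.1.1 on mm10 per the labels. The deposited counts precede the ambient RNA removal and cell filters of the study's methods. The libraries held 11368 to 19846 barcodes and 79177051 to 128323908 UMIs each, and 184957 of 185643 barcodes had 500 to 10000 genes.

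The members and gene lists were chosen with earlier results of these data known. Counts of the fibroblasts were summed per library and fitted with edgeR 4.0.16 in R 4.3.3 (TMM normalization, expression filter, robust quasi-likelihood F test, Benjamini-Hochberg adjustment over all genes tested). The fits held the 6 libraries of 1 age for the genotype contrasts and all 12 for age (genotype as a covariate) and the interaction. Named genes were the rule genes, up to 4 of each list with the highest CPM, and up to 10 called genes per direction with the smallest adjusted p whose groups did not overlap, or, where fewer than 3 were called, the 5 with the smallest p. Further members of the lists, and Gm30624 at 6 months, were named after their values were seen. The 20 leading genes had the highest ratio to other nuclei among genes in at least 25% of the fibroblasts. Doublets were scored with Scrublet in scanpy 1.11.5 (expected 8%) and clusters were made with Leiden at resolution 0.5, without the rule genes. Shares were compared by exact permutation tests (scipy 1.17.1). Levels are CPM without length correction, and 3 UMIs are 4.23 to 18.3 CPM in the fibroblasts of 1 library. Positions are those of GENCODE on GRCm38, and promoters those of RefSeq on GRCm38.p6. The model was tested on simulated data, where the share of unchanged genes among its calls was above the adjusted p threshold. Each mouse gave 1 library, so p-values measure the spread between mice together with dissection and capture. Some items are not reported here. Alternatives included DESeq2 1.42.0, no expression filter, thinned counts, other member rules and each library left out.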

Additional observations from a re-analysis of the deposited data

Results flagged for a closer look

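The level of 4 genes in the fibroblasts differed between genotypes by an amount that changed with age, by edgeR's test of the interaction itself. On the log2 scale the genotype difference at 12 minus 6 months was 3.13 for St6galnac5, 1.85 for Pigk, -1.66 for Sema5a and -6.65 for Kdr. St6galnac5 and Pigk overlap on opposite strands of chromosome 3, and Kdr rests on 1 to 42 UMIs per group.

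In groups of 6 libraries of 1 age, 4 of 48 sets of values had a single library far from the others, where chance gives about 1 in 20. Slc6a13 had 1080 CPM in 6-month WT replicate 11, against a median of 833 CPM over the 6-month libraries. Slc6a13 is a rule gene, so the value is a description, and none of the 4 flags is taken as evidence against chance. Ddx60 had 44.0 CPM in 12-month 3xTg-AD replicate 10, against a median of 87.1 CPM at 12 months. Cluster 9, the Bmper cluster, made up 6.58% of the fibroblasts of 6-month 3xTg-AD replicate 9 (median 1.08% at 6 months) and 11.5% of those of 12-month WT replicate 12 (median 1.78% at 12 months).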

How the results depend on the processing

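The count of genes called between genotypes at 6 months, 13 as reported, was 89 without the expression filter, 5 with counts thinned to the smallest library, 26 without doublets, 1 with at least 4 of the 7 rule genes, 5 without nuclei with UMIs of other classes, and 7 to 46 with 1 library left out (8 without 3xTg-AD replicate 1, 7 without WT replicate 7, 46 without 3xTg-AD replicate 9). It was 31 without the clusters of doublets, an alternative chosen after seeing the data. At 12 months, 3 as reported, it was 44 without the filter, 9 with DESeq2, 1 without nuclei with UMIs of other classes, 7 with all 12 libraries in 1 fit, and 0 to 25 with 1 library left out (5 without WT replicate 4, 25 without 3xTg-AD replicate 6, 0 without WT replicate 8, 1 without 3xTg-AD replicate 10). Between ages, 0 as reported, it was 26 without the filter, 3 with DESeq2, 1 with thinned counts, 6 in WT alone, and 0 to 5 with 1 library left out (5 without 6-month 3xTg-AD replicate 1, 2 without 12-month 3xTg-AD replicate 10, 1 without 12-month WT replicate 4 or 12). For the interaction, 4 as reported, it was 24 without the filter, 2 with thinned counts, 2 with at least 4 of the 7 rule genes, 1 without nuclei with UMIs of other classes, and 1 to 5 with 1 library left out (1 without 12-month 3xTg-AD replicate 6 or 6-month WT replicate 7). The interaction of the share of fibroblasts, -0.181 percentage points, turned to 0.0473 without 6-month 3xTg-AD replicate 1, 0.0465 without 6-month WT replicate 7 and 0.0178 without 12-month 3xTg-AD replicate 10, in a range of -0.517 to 0.0473. The share difference ran from -0.509 to -0.295 between ages and from -0.357 to -0.0868 between genotypes with 1 library left out. Of the 4 relations with other populations, of which 0 passed, 2 passed when shares were taken of nuclei with few transmitter UMIs and 1 with at least 4 of the 7 rule genes. Of the tests of cluster shares, of which 0 of 10 passed, 1 of 12 passed with clusters 3 and 7 added between ages, an alternative chosen because the shares of cluster 7 were seen not to overlap, so that it restates them. For cluster 7 that adjusted p ran from 0.02598 to 0.1559 with 1 library left out (exact permutation test). For the cluster of the same leading genes at resolution 1.0 it was 0.3734. The cause of these changes was not tested.

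Of 312 combinations of a called gene and a setting, 234 kept the call, 78 lost it and 0 turned direction. They leave out Gm30624, which was called at 6 months, and settings in which a gene had no value. Ankfn1 at 6 months kept its call in 15 of 15 settings, where most genes had 16. Gm17167 and Gm42743 had 11 and 13 settings there. The interaction of St6galnac5 was kept in 21 of 21 settings, and Kdr had 18. Of 503 combinations of a named gene without a call and a setting, 59 gave one. Of the fibroblasts, 1117 (58.9%) had at least 2 UMIs of mural, ependymal or choroid plexus epithelium markers (without Ttr), Aqp4 or Gja1. Fibroblasts express several of these genes themselves, so that leaving such nuclei out leaves far fewer counts. The smallest libraries held 58 and 63 fibroblasts. No paired analysis was possible because no replicate number is shared between groups.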

Other observations

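Genes of growth factor reception, of fibroblast activation and of amyloid handling were also measured in the fibroblasts. Of 20 growth factor receptors 17 reached 10 CPM, among them Tgfbr3, the betaglycan co-receptor of TGF-beta, at 945 CPM against 65.2 in all other nuclei, and Ghr, the growth hormone receptor, at 550 CPM against 146. Igf1r, the receptor of insulin-like growth factors, averaged 680 CPM in the fibroblasts and 3690 in endothelial cells. Of 16 genes listed for fibroblast activation 13 reached 10 CPM, with a sum of 539 CPM (286 to 660 over libraries), and Ccn2 averaged 161 CPM. Of 27 genes of amyloid and lipoprotein handling 23 reached 10 CPM, and 6 were highest in the fibroblasts among the 5 populations compared. Apoe, the main lipoprotein carrier of the brain, averaged 772 CPM against 201 in all other nuclei, and Lrp1, a receptor for it, 264 CPM against 98.3. None of these lists held a called gene in any comparison.

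App and Mapt, whose human forms the 3xTg-AD line carries, were measured as mouse genes. App had a log2 fold change of 0.26 at 6 months and -0.14 at 12 months, not called by edgeR at either. Mapt, which encodes tau, averaged 51.0 CPM in the fibroblasts and 404 CPM in all other nuclei. Of the human transgenes no separate count was analysed here.

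Immediate-early and stress genes were tested for 12 of 26 members at 6 months, of which 11 had a positive log2 fold change with a median of 0.368, against -0.00183 for all genes. Sgk1, a glucocorticoid-induced kinase, had 0.99 (adjusted p = 0.273, edgeR). In the interaction 2 of 15 were positive, with a median of -0.726 against -0.0101 for all genes. Interferon response genes had 2 positive of 13 tested at 6 months, with a median of -0.333. None of these genes was called, and members of a list that are expressed together are not separate evidence.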
